A study of Mus musculus with 12 samples.

Results

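The matrix metalloproteinases Mmp2, Mmp8, Mmp9, Mmp12, Mmp13, Mmp14 and Mmp19 and the tissue inhibitors of metalloproteinases Timp1, Timp2 and Timp3 were followed in the lungs of mice exposed to ovalbumin (OVA), to ambient particulate matter (PM), or to both. Every probe set whose array annotation gave 1 gene symbol equal to one of these names was taken, which gave 23 probe sets for 10 genes, of 34958 probe sets with 1 symbol and 18194 genes in all. Lung RNA was measured on 12 Affymetrix mouse genome arrays, 3 in each of 4 groups, with RNA from the lungs of 3 animals per group. The study asked how PM acts on naive lungs and on lungs made allergic to OVA.

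The OVA/PM group was sensitized with 0.4 mg/kg of OVA into the peritoneum on day 0, challenged with 30 mg/kg of OVA into the trachea on day 14, and then given 50 µl of PM in buffered saline (PBS) at 10 mg/ml. The OVA group had the OVA sensitization and challenge without PM, the PM group had the same PM without OVA, and the Control group had PBS in place of both. All were male A/J mice, 8 to 10 weeks of age per the labels, and lungs were taken on the fourth day after PM. OVA sensitization and challenge is a widely used model of allergic airway disease, and the A/J strain is known for airways that react strongly. The RNA came from whole lung, so for every gene below fewer cells of a type and less RNA per cell cannot be told apart.

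Matrix metalloproteinases are zinc-dependent enzymes that cut collagens, elastin and other proteins of the extracellular matrix, and most are made as inactive precursors. The tissue inhibitors of metalloproteinases bind their active site and so set how much of the released enzyme can work. In the lung, macrophages, neutrophils, fibroblasts and epithelial cells are known to make different members, and the balance of enzyme and inhibitor is known for its part in emphysema and airway remodeling.

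The values are log2 intensities from GCRMA, a method that corrects each probe for background by its base content and puts all arrays on a common scale. They ran between 0.48 and 16.3, with array medians between 4.84 and 5.03, and the median of all values, 4.93, was used here as the level under which a probe set was taken as not well above background. The BioB and BioC hybridization controls were at 6.65 and 7.56 on OVA/PM replicate 3 and at most at 4.68 and 3.95 on the other arrays. Control replicate 1 alone had Pzp at 8.60 and Plg at 7.41, against at most 2.77 and 2.06 on the other arrays, and Control replicate 3 had the highest mean of the neutrophil markers, 9.61. The surfactant genes Sftpa1, Sftpb and Sftpc, which mark lung epithelium, were at or above 13.6 on all arrays. Of the eosinophil markers, Prg2, Epx, Ccr3 and Il5ra were under 4.93 on all arrays, those of OVA-challenged lungs included. The OVA and PM labels carry a doubt, since changes that the study tabulates for OVA match the arrays titled PM, and the reverse. The macrophage counts in airway fluid that it describes run with the titles, but other findings do not. It describes neutrophils and IL-6 in airway fluid rising with PM, IL-6 not rising with OVA, and more genes changed by PM than by OVA. Here Il6 RNA averaged 7.71 in OVA, 5.18 in PM and 4.64 in Control. The 4 neutrophil markers tested had a median log2 fold change of −1.99 in PM and −0.34 in OVA against Control. Both values depend on Control replicate 3, since the list mean was 6.73 and 7.40 on the other Control arrays. Lung RNA is also a different measure from cells or protein in airway fluid. Against Control, limma called 16 probe sets in PM, and 1953 higher and 2373 lower in OVA. The titles were kept, so each direction for "OVA" or "PM" below is that of the arrays labelled so, while OVA/PM against Control and the interaction would stay the same with the names exchanged. OVA/PM against OVA and OVA/PM against PM would then change places.

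Mmp12 (chromosome 9), Mmp13 (chromosome 9) and Timp1 (chromosome X) had the largest differences from Control among the 10 genes in OVA/PM, and their promoters are shown for that reason. Each sequence runs 5′ to 3′ over 250 bases before and 50 bases after a RefSeq transcription start (GRCm38.p6), with capitals for matches to TGANTCA, the AP-1 motif, and AGGAAG, the PEA3 motif of ETS factors, on either strand. These motifs are well known in collagenase promoters. Windows were found for 7 of the 10 genes, 8 windows in all. Mmp12 has a pair of starts, of which the first is in chr9:7344147-7344446 and the second in chr9:7347124-7347423, both on the plus strand.
Mmp12, first start: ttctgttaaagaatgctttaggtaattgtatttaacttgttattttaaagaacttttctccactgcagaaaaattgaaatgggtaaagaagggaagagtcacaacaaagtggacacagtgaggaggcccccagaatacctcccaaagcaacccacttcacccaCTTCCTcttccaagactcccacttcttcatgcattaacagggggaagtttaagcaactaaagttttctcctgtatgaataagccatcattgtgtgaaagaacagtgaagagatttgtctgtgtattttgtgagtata
Mmp12, second start: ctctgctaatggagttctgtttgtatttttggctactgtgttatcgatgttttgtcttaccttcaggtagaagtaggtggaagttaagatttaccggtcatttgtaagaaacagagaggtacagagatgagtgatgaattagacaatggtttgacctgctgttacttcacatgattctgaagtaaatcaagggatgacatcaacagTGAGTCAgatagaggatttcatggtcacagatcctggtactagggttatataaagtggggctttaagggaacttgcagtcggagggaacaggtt
Mmp13, chr9:7272264-7272563, plus strand: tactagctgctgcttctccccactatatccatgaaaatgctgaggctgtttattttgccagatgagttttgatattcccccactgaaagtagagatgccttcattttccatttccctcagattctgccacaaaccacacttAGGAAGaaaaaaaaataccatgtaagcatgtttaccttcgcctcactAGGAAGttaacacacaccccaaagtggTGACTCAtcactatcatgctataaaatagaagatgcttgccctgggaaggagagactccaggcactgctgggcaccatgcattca
Timp1, chrX:20869916-20870215, plus strand: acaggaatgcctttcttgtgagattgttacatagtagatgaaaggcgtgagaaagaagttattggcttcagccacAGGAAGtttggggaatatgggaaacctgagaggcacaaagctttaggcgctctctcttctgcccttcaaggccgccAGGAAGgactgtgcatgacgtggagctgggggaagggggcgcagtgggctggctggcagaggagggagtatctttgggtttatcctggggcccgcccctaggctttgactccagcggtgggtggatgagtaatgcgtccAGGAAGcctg
The AP-1 letters began 44 bases before the second start of Mmp12 and 35 bases before the start of Mmp13. In Mmp13 the PEA3 letters lay 109 and 62 bases before the start, and in Timp1 they lay 175 and 99 bases before it and 40 bases after it. They lay 87 bases before the first start of Mmp12, 220 bases before that of Mmp8, 209 bases before that of Mmp14 and 204 bases before that of Timp3, so that PEA3 letters were in 6 of the 8 windows and AP-1 letters in 2. No TGANTCA was in the windows of Timp1, Mmp8, Mmp14, Timp2, Timp3 or the first start of Mmp12. Variants of these letters were not searched for, so an AP-1 site of another form could have been missed. Among all 32851 windows of this length, 7.81% held TGANTCA and 35.4% held AGGAAG. A match describes these letters only and shows no binding.

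In OVA/PM lungs against Control lungs, 5 of the 10 genes were up-regulated and 1 was down-regulated past an adjusted p of 0.05 (limma, 3 arrays against 3, Benjamini-Hochberg over all probe sets kept). Mmp12, Mmp13, Mmp14, Mmp19 and Timp1 were higher and Timp3 was lower, while 13.9% of all genes tested were called higher and 9.74% lower in that comparison. A gene was represented by its probe set with the highest mean, and tests covered those probe sets that reached 4.93 on the 3 arrays of at least 1 compared group. Of the 23 probe sets, 20 were tested there, and 1 further probe set each of Mmp9, Mmp19 and Timp2 was left out as too dim. In the arrays labelled OVA against Control, the same 5 genes were called higher and 0 lower, with a background of 11.3% higher and 7.58% lower. In the arrays labelled PM against Control, 0 of 8 tested genes were called by limma, with 0.0986% of all genes called there. An unadjusted limma p under 0.05 was found for 4 of the 8. The share of all genes under that unadjusted threshold was not computed, here or below, so such counts are not read as a result. Mmp13 and Timp1 were under 4.93 on all Control arrays and entered the tests only through the OVA/PM or OVA arrays. The 10 genes were also chosen with earlier results of these data known. For both reasons the numbers called higher in OVA/PM and in OVA are not read as a result. Mmp13 and Timp1 could not be tested in PM against Control because neither group kept all 3 arrays above 4.93. The median log2 fold change of the 10 genes was 1.29 in OVA/PM and 1.29 in OVA against Control, beside 0.01 and 0.00 over all genes tested, and 1.29 and 1.28 with Mmp13 and Timp1 at their lower bounds. The 3 comparisons share the Control arrays. With any 1 array left out, 5 to 7 of the genes were called in OVA/PM and 0 in PM, but 2 in OVA without Control replicate 1, Control replicate 2 or OVA replicate 3, 3 without Control replicate 3 or OVA replicate 1, and 7 without OVA replicate 2. OVA replicate 2 had the lowest level of Mmp8, Mmp9, Mmp13, Mmp14, Mmp19 and Timp1 among the OVA arrays.

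**Figure D1:**
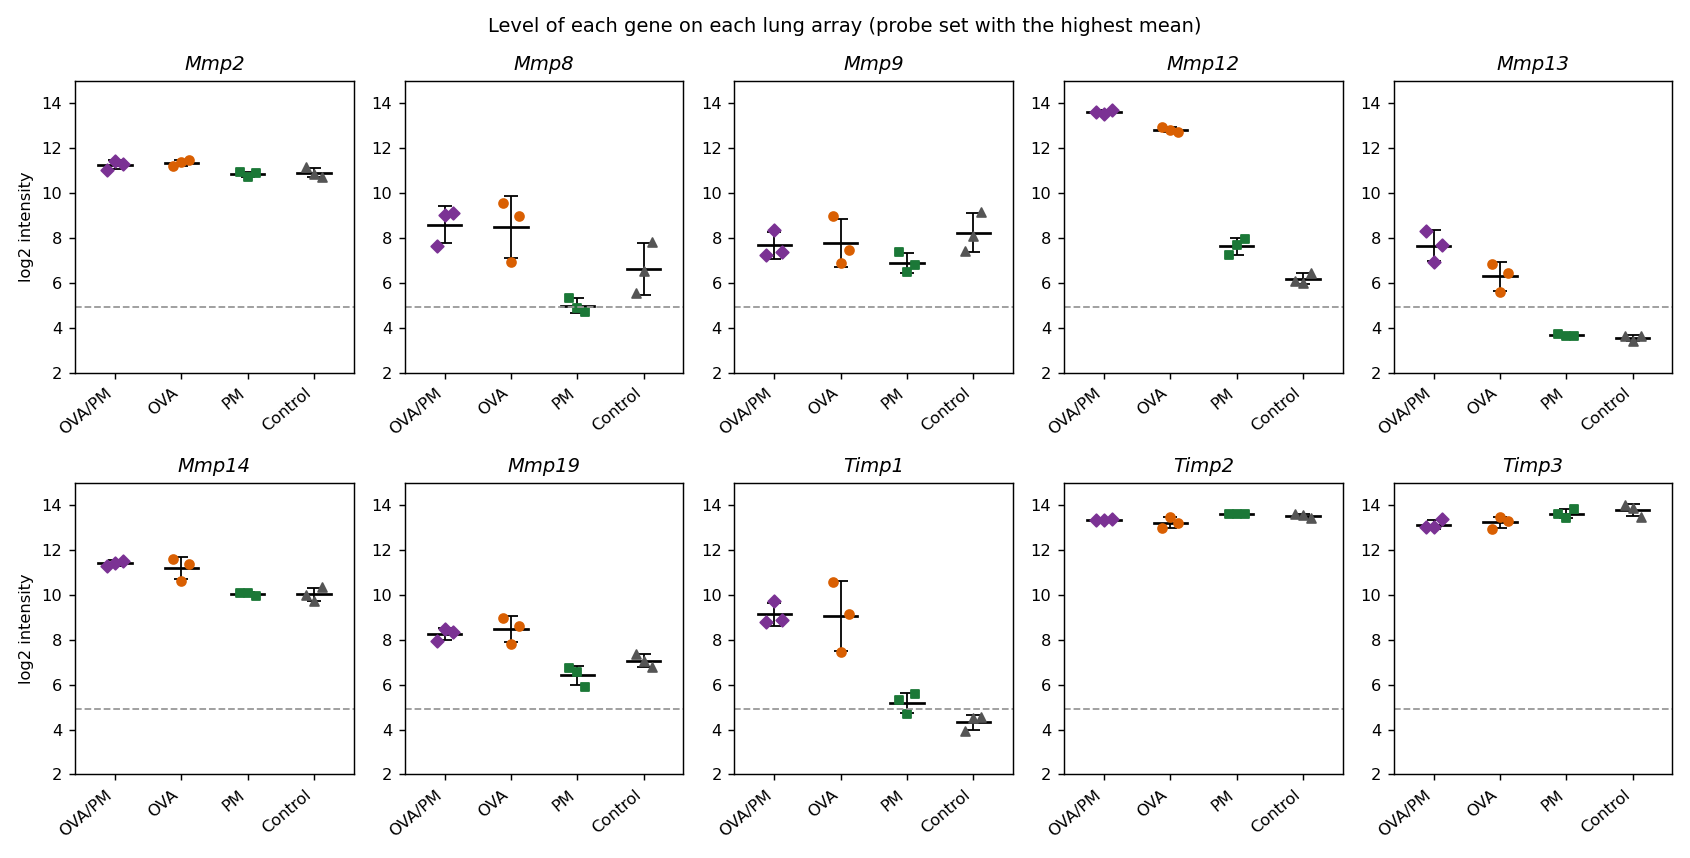
Each panel plots the log2 intensity of 1 gene (vertical axis) on the 3 arrays of OVA/PM, OVA, PM and Control, with the group mean and SD as a black line and bar and 4.93 as a dashed line. Mmp12 sat between 13.54 and 13.72 in OVA/PM and between 5.98 and 6.46 in Control. Only the brightest probe set of each gene is drawn, on which Timp2 and Timp3 lay between 12.96 and 14.00 in all groups. Their other probe sets are given in the text.

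Mmp12, the macrophage elastase, had the largest measured change. Its levels were 13.63, 13.54 and 13.72 in OVA/PM, 12.94, 12.81 and 12.71 in OVA, 7.24, 7.70 and 7.95 in PM, and 6.10, 5.98 and 6.46 in Control. The 4 groups stood in that order with no overlap between any neighbours. In OVA/PM it was 175-fold higher than in Control (log2 fold change 7.45, SE 0.14, limma adjusted p = 4.23e-06), and in OVA it was 99.7-fold higher (6.64, SE 0.14, limma adjusted p = 0.000108). Both calls held when any 1 array was left out. In PM the 3 arrays were above all 3 Control arrays, 2.73-fold on average, with a 95% interval of 0.93 to 1.96 for the log2 fold change and a limma adjusted p of 0.156. That value passed the threshold in a fit of all 4 groups together (limma adjusted p = 0.00876).

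**Figure D2:**
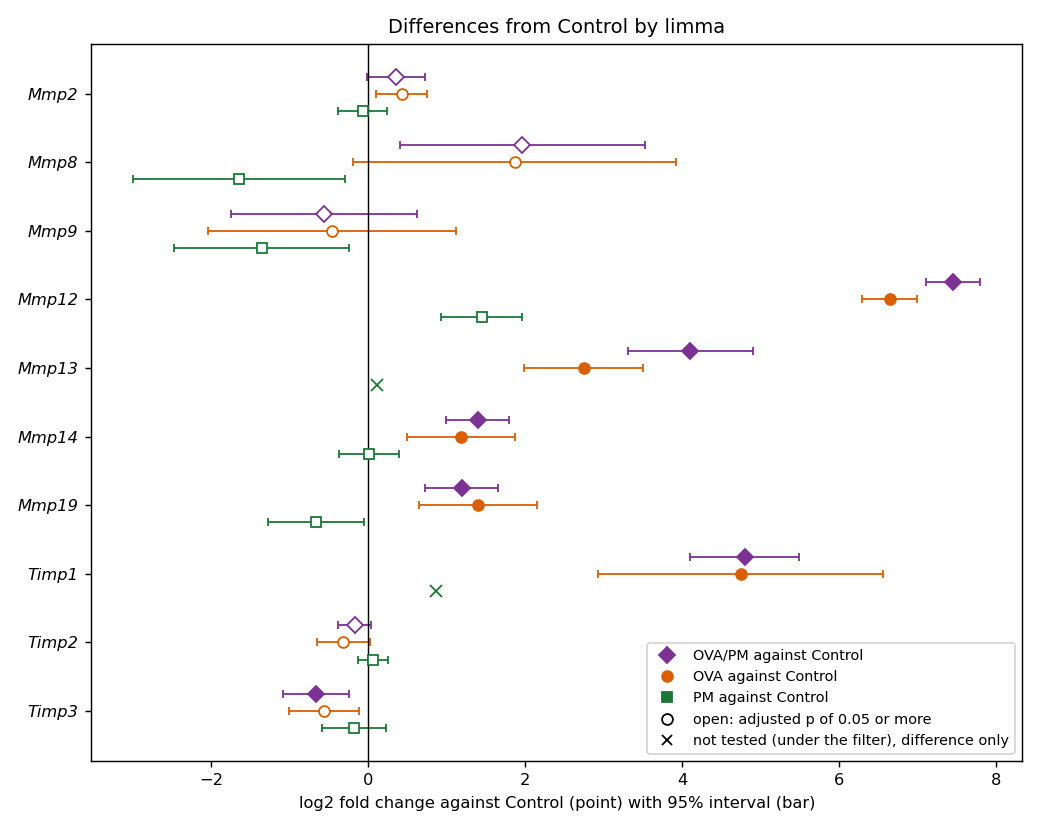
The horizontal axis is the log2 fold change of each gene in OVA/PM, OVA and PM against Control, with 95% intervals from limma. Filled points have an adjusted p under 0.05, open points do not, and crosses give the difference of means for Mmp13 and Timp1 in PM, which were not tested. Mmp12 lies at 7.45 in OVA/PM and 6.64 in OVA. The points of Mmp13 and Timp1 are differences from Control arrays that were all under 4.93, so they give no size or rank, and their lower bounds are in the text.

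The collagenases Mmp13 and Mmp8 cut fibrillar collagen. Mmp13, the main interstitial collagenase of rodents, had levels of 8.32, 6.94 and 7.71 in OVA/PM, 6.85, 5.59 and 6.45 in OVA, 3.73, 3.64 and 3.66 in PM, and 3.64, 3.39 and 3.63 in Control. All PM and Control arrays were under 4.93 and overlapped, and every OVA/PM array was above every OVA array. With the dim group set at 4.93, Mmp13 was at least 6.62-fold higher in OVA/PM than in Control (limma adjusted p = 0.000985) and at least 2.58-fold higher in OVA than in Control (limma adjusted p = 0.00954). The first call held without any 1 array and the second did too, with adjusted p reaching 0.0494. Mmp8, the neutrophil collagenase, was at 7.63, 9.02 and 9.11 in OVA/PM, 9.57, 6.91 and 8.99 in OVA, 5.35, 4.90 and 4.70 in PM, and 5.54, 6.52 and 7.82 in Control. The Control arrays spread widely, overlapped with both OVA/PM and OVA, and lay above all PM arrays. Mmp8 was not called against Control in OVA/PM (log2 fold change 1.96, SE 0.65, limma adjusted p = 0.0763), in OVA (1.87, limma adjusted p = 0.157) or in PM (−1.64, limma adjusted p = 0.542).

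Mmp8, Mmp12 and Mmp13 lie in a cluster of 10 metalloproteinase genes on chromosome 9, in the order Mmp13, Mmp12, Mmp1b, Mmp3, Mmp1a, Mmp10, Mmp8, Mmp27, Mmp20 and Mmp7. Mmp27 had no probe set with a single symbol. Of the other 9 genes, Mmp1b, Mmp1a, Mmp10, Mmp20 and Mmp7 were under 4.93 on all 12 arrays, Mmp1b being the neighbour of Mmp12 on the side away from Mmp13. Mmp3, stromelysin-1, lay between 6.73 and 9.50 and was not called in OVA/PM against Control (log2 fold change 0.52, SE 0.33, limma adjusted p = 0.296).

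Mmp14, the membrane-type enzyme that activates the Mmp2 precursor at the cell surface, was measured by 3 probe sets. The first, 1448383_at, read 11.30, 11.44 and 11.53 in OVA/PM, 11.61, 10.64 and 11.37 in OVA, 10.07, 10.09 and 9.96 in PM, and 9.98, 9.74 and 10.34 in Control. OVA/PM and OVA did not overlap with PM or Control, and PM overlapped with Control. Mmp14 was 2.64-fold higher in OVA/PM than in Control (log2 fold change 1.40, SE 0.17, limma adjusted p = 0.00352), and its other probe sets gave 1.16 and 1.78 with limma adjusted p of 0.00693 and 0.00469. Over all probe sets tested, 10.9% were called higher in OVA/PM and 8.68% in OVA against Control. In OVA against Control all 3 probe sets were called as well, with log2 fold changes of 1.18, 1.21 and 1.57 (limma adjusted p = 0.0382, 0.0317 and 0.0197). The OVA call of the first probe set was lost in 5 of 6 fits that left out 1 array, up to a limma adjusted p of 0.127, and with no filter on level, and held without OVA replicate 2. In PM against Control the first probe set differed by 0.02 on the log2 scale (95% interval −0.37 to 0.40).

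The gelatinases Mmp2 and Mmp9 cut denatured collagen and basement membrane collagen. Mmp2, the constitutive gelatinase of mesenchymal cells, read 11.05, 11.44 and 11.32 in OVA/PM, 11.21, 11.37 and 11.46 in OVA, 10.93, 10.72 and 10.90 in PM, and 11.15, 10.87 and 10.73 in Control. OVA/PM overlapped with Control, and OVA lay above Control. Mmp2 was not called in OVA/PM against Control (log2 fold change 0.35, SE 0.15, limma adjusted p = 0.148), and in OVA against Control its probe sets fell on either side of the threshold, with 0.43 (limma adjusted p = 0.0697) and 0.51 (limma adjusted p = 0.0471). Mmp9, the gelatinase that neutrophils store in granules, read 7.25, 8.38 and 7.40 in OVA/PM, 8.98, 6.88 and 7.49 in OVA, 7.37, 6.47 and 6.81 in PM, and 7.44, 8.11 and 9.16 in Control. The highest array of all was a Control array, replicate 3, and OVA/PM and OVA overlapped with Control. The log2 fold change of Mmp9 was −0.56 in OVA/PM (limma adjusted p = 0.44), −0.45 in OVA (limma adjusted p = 0.628) and −1.36 in PM (limma adjusted p = 0.542). Without Control replicate 3, the OVA value was 0.01, so its sign rested on that array. The second Mmp9 probe set ran between 3.30 and 8.19, was again highest on Control replicate 3, and was not tested.

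Mmp19, an enzyme that cuts basement membrane proteins, read 7.95, 8.48 and 8.35 in OVA/PM, 8.96, 7.83 and 8.62 in OVA, 6.77, 6.55 and 5.91 in PM, and 7.36, 7.05 and 6.80 in Control. OVA/PM and OVA overlapped with each other and lay above Control, and PM lay below Control. Mmp19 was 2.28-fold higher in OVA/PM than in Control (log2 fold change 1.19, SE 0.20, limma adjusted p = 0.00987), a call that held without any 1 array. In OVA it was 2.64-fold higher than in Control (1.40, SE 0.31, limma adjusted p = 0.0323), a call lost in 5 of 6 fits that left out 1 array, up to a limma adjusted p of 0.113, and with no filter on level, and kept without OVA replicate 2. In PM its log2 fold change was −0.66 (limma adjusted p = 0.582). The second Mmp19 probe set was too dim to test.

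Timp1, the inducible inhibitor, was higher in OVA/PM and in OVA than in Control. Its levels were 8.79, 9.71 and 8.88 in OVA/PM, 10.59, 7.48 and 9.16 in OVA, 5.31, 4.69 and 5.57 in PM, and 3.95, 4.51 and 4.54 in Control. All Control arrays were under 4.93, the PM arrays lay above them without overlap, and the OVA arrays spanned the whole range of OVA/PM. Timp1 was at least 18.4-fold higher in OVA/PM than in Control (limma adjusted p = 0.000399), and at least 17.7-fold higher in OVA than in Control (limma adjusted p = 0.0165). The bound for OVA moved with the arrays, to at least 10.5-fold without OVA replicate 1 and at least 30.8-fold without OVA replicate 2. The second call was lost without Control replicate 1, Control replicate 2 or OVA replicate 3, up to a limma adjusted p of 0.0708. In PM, Timp1 averaged at least 1.20-fold over Control, with no test.

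Timp2 and Timp3 had the opposite direction to Timp1 where they changed. Timp3, which binds to the matrix and also inhibits ADAM proteases, read 13.01, 13.01 and 13.38 in OVA/PM, 12.96, 13.45 and 13.30 in OVA, 13.62, 13.41 and 13.81 in PM, and 14.00, 13.89 and 13.49 in Control on its brightest probe set. The OVA/PM and OVA arrays were all below Control, and PM overlapped with Control. Timp3 fell by 0.66 on the log2 scale in OVA/PM against Control (SE 0.17, limma adjusted p = 0.04), and its other 3 probe sets fell by 0.83, 1.18 and 1.48 (limma adjusted p = 0.0126, 0.00438 and 0.0115). Over all probe sets tested, 10.9% were called lower in OVA/PM, 10.5% lower in OVA, and 0.0719% in either direction in PM, each against Control. The call of the brightest probe set was lost in 4 of 6 fits that left out 1 array, namely without Control replicate 1, Control replicate 2, OVA/PM replicate 1 or OVA/PM replicate 2, up to a limma adjusted p of 0.129, and with no filter on level. In OVA, the log2 fold changes of the 4 Timp3 probe sets ran between −1.03 and −0.56, and 2 of them were called (limma adjusted p = 0.0331 and 0.0433). In PM they ran between −1.02 and −0.18 with 0 called by limma. An unadjusted p under 0.05, for which no share of all probe sets was computed, was found for 3 of them.

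Timp2, which inhibits Mmp2 and also helps Mmp14 to activate it, read 13.33, 13.34 and 13.39 in OVA/PM, 12.98, 13.47 and 13.19 in OVA, 13.59 on all arrays of PM, and 13.60, 13.56 and 13.42 in Control on its brightest probe set. The OVA/PM arrays lay just below Control, and the log2 fold change was −0.17 (SE 0.09, limma adjusted p = 0.215). Of its 5 tested probe sets, 2 were called in OVA/PM against Control, 1433662_s_at at −0.57 (limma adjusted p = 0.0335) and 1420924_at at −1.17 (limma adjusted p = 0.0108), and only 1420924_at was called in OVA (−0.71, limma adjusted p = 0.0369). On 1420924_at the levels were 10.08, 10.57 and 10.69 in OVA/PM, 10.89, 11.15 and 10.71 in OVA, 11.51, 10.91 and 10.69 in PM, and 11.81, 11.70 and 11.35 in Control. The probe sets of Timp2 thus gave different calls, with all 5 log2 fold changes below 0 in OVA/PM. The sixth probe set was under 4.93 on all arrays.

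**Figure D3:**
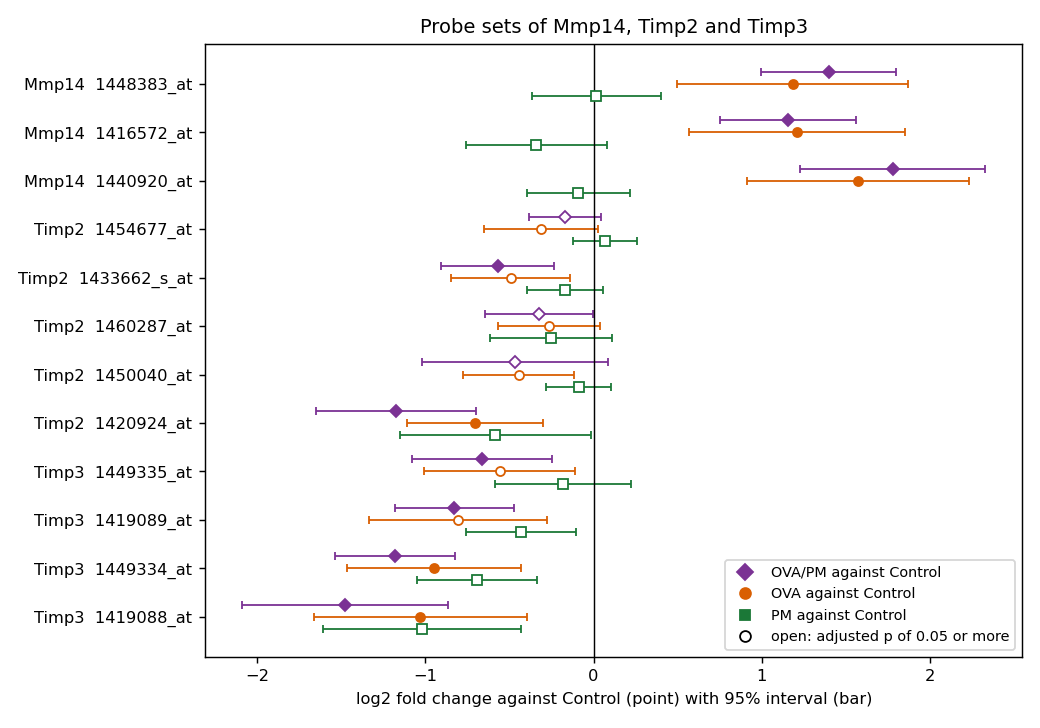
Rows are the tested probe sets of Mmp14, Timp2 and Timp3, and the horizontal axis is the log2 fold change against Control in OVA/PM, OVA and PM with 95% intervals from limma. Filled points have an adjusted p under 0.05. The 3 Mmp14 probe sets lie right of 0 in OVA/PM (1.16 to 1.78), and the 4 Timp3 probe sets lie left of it (−1.48 to −0.66).

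The groups with OVA were also set against the arrays labelled PM. In OVA/PM against PM, 6 of 10 genes were called higher and 0 lower, with 9.13% of all genes called higher and 6.77% lower. These were Mmp12, 64.1-fold (limma adjusted p = 8.19e-05), Mmp13, at least 6.62-fold (limma adjusted p = 0.00154), Timp1, 15.3-fold (limma adjusted p = 0.00154), Mmp8, 12.2-fold (limma adjusted p = 0.0041), Mmp19, 3.61-fold (limma adjusted p = 0.00707), and Mmp14, 2.61-fold (limma adjusted p = 0.00112). None of these 6 calls was lost when any 1 array was left out. Mmp8, Mmp13 and Timp1 passed the filter there only through the OVA/PM arrays, so the number called is not read as a result. On PM arrays Mmp8 also read 4.90 and 4.70 and Timp1 read 4.69, all under 4.93. Their folds thus depend in part on values taken as not well above background. In OVA against PM, 5 of 10 genes were called higher, Mmp12, Mmp13, Mmp19, Mmp8 and Timp1, and 0 lower, with a background of 4.23% higher and 1.9% lower. Mmp12 was 36.5-fold higher there (limma adjusted p = 0.00112) and kept its call without any 1 array. The other 4 calls, with limma adjusted p between 0.0278 and 0.0464, were each lost in 5 of 6 fits without 1 array and with no filter on level, and kept without OVA replicate 2. Of these, Mmp8, Mmp13 and Timp1 passed the filter only through the OVA arrays, so this number called is not read as a result either.

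OVA/PM against OVA, by the titles, sets lungs with both exposures against lungs with OVA alone. By limma, 0 of 10 genes were called, and 0.159% of all genes were called. An unadjusted p under 0.05, for which no share of all genes was computed, was found for 2 of the 10. Those were Mmp12, 1.75-fold higher in OVA/PM (95% interval of the log2 fold change 0.56 to 1.06, limma adjusted p = 0.0852), and Mmp13, 2.56-fold higher (0.32 to 2.40, limma adjusted p = 0.493), and neither overlapped between the groups. With only the brightest probe sets tested, above the 75th percentile of all values, Mmp12 passed (limma adjusted p = 0.0278). For Mmp8, Mmp9 and Timp1 the intervals were wide, from −1.69 to 1.88, −1.47 to 1.26 and −1.74 to 1.85 on the log2 scale.

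The interaction of OVA and PM is the change from PM in OVA-challenged lungs minus that in naive lungs, on the log2 scale. It was called for 0 of 10 genes (limma over all 12 arrays), with 0.035% of all genes called. An unadjusted p under 0.05, for which no share of all genes was computed, was found for 2 of the 10. The interaction was −0.64 for Mmp12 (SE 0.25, limma adjusted p = 0.73) and 1.24 for Mmp13 (SE 0.49, limma adjusted p = 0.731), whose PM and Control arrays were all under 4.93. The study's synergistic index is the difference of OVA/PM from Control divided by the sum of the differences of OVA and of PM from Control. For physiologic measures the study called synergy only where the joint difference also exceeded that of each exposure alone. That demand was not applied here. The index was taken on linear intensities and exceeds 1 where the joint difference is the larger. It was 1.73 ± 0.10 for Mmp12, 2.82 ± 1.08 for Mmp13, 1.21 ± 0.42 for Mmp14 and 0.743 ± 0.429 for Timp1 (± SE over 12 arrays), given as a description with no test. Among the remaining genes it was 1.19 ± 1.03 for Mmp8. The OVA/PM difference of Mmp8 from Control, 302, was below that of OVA, 342, and that of PM was −89.1. The OVA and PM differences also had opposite signs for Mmp2, Mmp14, Mmp19 and Timp2. The index was below 1 for Mmp2 (0.959 ± 0.516), Mmp9 (0.420 ± 0.271), Mmp19 (0.923 ± 0.435), Timp2 (0.783 ± 0.469) and Timp3 (0.836 ± 0.269). For Mmp9, Timp2 and Timp3 the OVA/PM mean was below that of Control. The index of Mmp12 was thus above 1 while its log2 interaction was below 0: the index compares added intensities, and the interaction compares ratios. Without any 1 array the index ran between 1.67 and 1.80 for Mmp12, between 2.12 and 3.59 for Mmp13, between 0.926 and 1.59 for Mmp14 and between 0.537 and 1.52 for Timp1.

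Genes around the metalloproteinases were counted in the same comparison of OVA/PM against Control, beside the 13.9% of genes called higher and 9.74% called lower. These lists, and those of cell type markers below, were chosen with earlier results of these data known. Their counts are a description only. Of 11 other metalloproteinases on the array, 7 were under 4.93 on all arrays and 3 were tested, with 0 called. Of 3 other inhibitors tested, Tfpi2, a serine protease inhibitor of the matrix that passed the filter only through OVA/PM, rose by 2.62 on the log2 scale (limma adjusted p = 0.00158) and Reck, a membrane-anchored inhibitor, fell by 0.82 (limma adjusted p = 0.0086). Of 12 ADAM and ADAMTS proteases tested, 3 were higher, Adam28 at 0.49 (limma adjusted p = 0.0394), Adam17 at 0.80 (limma adjusted p = 0.00929) and Adam8 at 1.86 (limma adjusted p = 0.0109). Of 3 activators of metalloproteinase precursors tested, 0 were called by limma, and the urokinase receptor gene Plaur stood at 0.46 (limma adjusted p = 0.0742) and the plasminogen activator gene Plat at −0.22 (limma adjusted p = 0.174).

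Of 10 cytokines known to induce metalloproteinases with a probe set, 6 were tested, and 4 of these, Il1a, Csf2, Il6 and Osm, passed the filter only through OVA/PM, so that their number called is not read as a result. Il6 differed by 4.13 and Tgfb1 by 0.59 on the log2 scale between OVA/PM and Control (limma adjusted p = 0.00303 and 0.0399). Osm and Il1a, under 4.93 on all Control arrays, were at least 1.70-fold and at least 1.72-fold higher in OVA/PM (limma adjusted p = 0.00213 and 0.015). Of 8 AP-1 and ETS factors tested, Spi1, the ETS factor of myeloid cells, was higher at 1.14 (limma adjusted p = 0.039), while Jun at −0.76 and Ets2 at −0.54 were lower (limma adjusted p = 0.0108 and 0.00802). Of 11 matrix substrates tested, 3 were higher, the proteoglycan gene Vcan at 1.90 and the fibrillar collagen genes Col1a1 at 1.502 and Col3a1 at 1.16 (limma adjusted p = 0.00161, 0.0112 and 0.0121), and 0 were lower. Vcan passed the filter only through OVA/PM.

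Markers of cell types that make these enzymes moved in the same comparisons. Of 9 monocyte and macrophage markers tested, 8 were higher in OVA/PM than in Control and 7 in OVA, among them Itgax, Ms4a7, Msr1 and Cd14 at 2.49, 4.02, 3.48 and 2.06 in OVA/PM. Their mean level ran between 10.60 and 11.21 in OVA/PM, 10.42 and 11.23 in OVA, 8.90 and 9.54 in PM, and 8.70 and 9.10 in Control. Thus OVA/PM and OVA lay above PM and Control without overlap, as they did for Mmp12, Mmp13, Mmp14, Mmp19 and Timp1. The share of all genes that part this way was not computed, so this likeness is not read as a result. PM and Control overlapped for the list mean. For Mmp12 and Timp1 PM lay above Control without overlap, and for Mmp19 below it. The neutrophil markers stood at 7.09, 8.85 and 8.11 in OVA/PM, 9.05, 6.80 and 7.53 in OVA, 6.88, 6.49 and 6.10 in PM, and 6.73, 7.40 and 9.61 in Control, with 1 of 4 tested, Ltf, called higher (2.82 in OVA/PM). Mmp9 and Mmp8 were also lowest on OVA replicate 2 within OVA and highest on Control replicate 3 within Control. Of 6 endothelial markers, 5 were lower in OVA/PM than in Control, among them Tek at −0.997, Tie1 at −0.98, Pecam1 at −0.78 and Cldn5 at −0.61, with a list mean between 11.90 and 12.10 in OVA/PM, 11.91 and 12.29 in OVA, 12.64 and 12.68 in PM, and 12.66 and 12.77 in Control. Of 8 fibroblast markers 1 was higher (Thy1) and 2 were lower (Fbln1 and Tcf21). Of 8 lung epithelial markers 1 was higher, Foxj1 at 0.84, and 4 were lower, among them Hopx at −0.67, Sftpb at −0.47 and Ager at −0.33. Of 8 striated muscle markers 3 were lower (Mb, Ckm and Tnnt3), and the 1 eosinophil marker tested, Siglecf, was not called (0.45, limma adjusted p = 0.195). The part of these cell types in the values of the 10 genes was not tested.

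**Figure D4:**
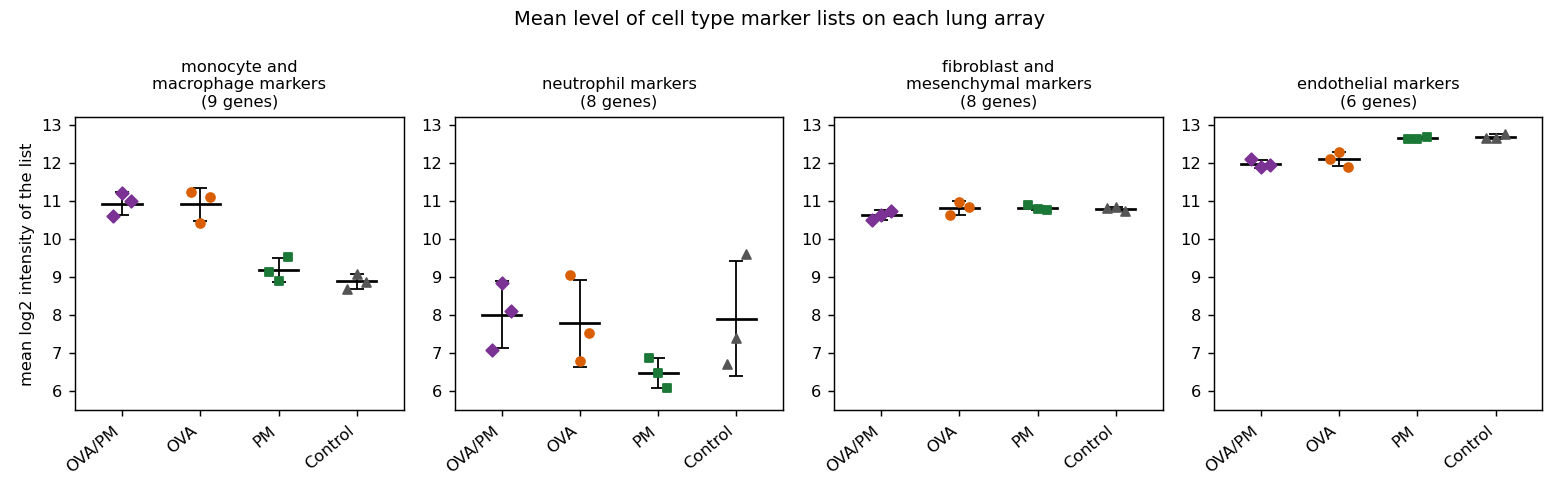
Each panel plots the mean log2 intensity of 1 list of marker genes (vertical axis) on the 3 arrays of OVA/PM, OVA, PM and Control, with the group mean and SD as a black line and bar. Macrophage markers lay at or above 10.42 on all OVA/PM and OVA arrays and at or below 9.54 on all PM and Control arrays, and neutrophil markers were highest on Control replicate 3 (9.61).

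The genes whose levels were most like those of each member were taken by Pearson's r over the 12 arrays, which share their groups, so that r is a description only. Mmp12 was closest to Ccnf (r = 0.985), Rilpl2 and Aspm, and Mmp13 to Dclk1 (r = 0.984), Psrc1 and Hells. Mmp14 was closest to Slfn9 (r = 0.991), the scavenger receptor gene Msr1 (r = 0.989) and Dera, and Timp1 to Sting1, Chil1 (both r = 0.992) and Noxo1. Mmp8 was closest to Slfn4 (r = 0.982), Msrb1 and Arg2, and Mmp9 to the neutrophil calgranulin genes S100a8 (r = 0.930) and S100a9 (r = 0.927) and to Tpcn2. Mmp19 was closest to Clec5a (r = 0.961), Psmd11 and Sorcs2. Mmp2 was closest to Fstl1 (r = 0.932), Tpp1 and the collagen gene Col1a2 (r = 0.919). Timp2 was closest to Acvr2a (r = 0.981), 4930430F08Rik and Clec1a, and Timp3 to Fmo2 (r = 0.973), Adgrl4 and Ackr2.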

How the data were processed

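The deposited values were log2 intensities of 45101 probe sets on 12 arrays, made by the authors with the gcrma package (GCRMA). The submitters' processing notes also name MAS5, and versions were not given in the sources used here. Symbols came from the platform annotation: 34958 probe sets had 1 symbol, 932 several and 9211 none, and 34754 of the first matched RefSeq names (GRCm38.p6) with 0 renamed.

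Groups were taken from the sample titles. GEO's description calls every array that of a control animal, which the titles contradict. Pairwise fits (3 arrays against 3) used limma 3.58.1 in R 4.3.3 on the deposited values, without 64 control probe sets. Detection calls were not used here, so the median of all values, 4.93, had to be reached on the 3 arrays of at least 1 compared group. The methods name SAM, which rests on relabelled samples and was not run here; limma took its place. P-values were adjusted by Benjamini-Hochberg over all probe sets kept (22246 to 22688), with a threshold of 0.05. An exact permutation test of 3 against 3 cannot go below p = 0.1, so single genes rest on limma alone. The interaction came from 1 fit of all 4 groups. Where all 3 arrays of a group were under 4.93, that group was set to the higher of 4.93 and its own value, array by array, and the fold is given as at least that size. Fits were tested on simulated data. The number of arrays limits the precision.

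The 10 genes and the gene lists were chosen with earlier results of these data known. All 10 genes are named with every probe set. From each other list up to 4 genes past the threshold in OVA/PM against Control with the lowest adjusted p are named, or the 1 or 2 with the lowest p where none passed. For each of the 10 genes, the 3 genes with the highest Pearson's r over 12 arrays are named.

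Each result was also computed without a filter on level, with a level of 8.65 (the 75th percentile), after adding 16 on the linear scale, after quantile normalization, with a block for replicate number, in 1 fit of all 4 groups, on the probe set of lowest p, and without each array in turn.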

Additional observations from a re-analysis of the deposited data

How the results depend on the processing

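In OVA/PM against Control, the 5 rises kept their call under every alternative that could test them, with log2 fold changes between 7.16 and 7.59 for Mmp12, 1.26 and 1.56 for Mmp14, and 1.06 and 1.34 for Mmp19. For Mmp13 and Timp1, bounded by the dim Control arrays, the bounds with 1 array left out were at least 5.27-fold to 8.48-fold and at least 14.98-fold to 20.6-fold. The Timp3 call was lost with no filter and with the replicate block, and the count of called genes ran between 5 and 7 with 1 array left out. In OVA/PM against PM the 6 calls were kept wherever they could be tested, with 6 genes called with 1 array left out.

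In OVA against Control, 5 genes were called, against 3 with no filter, 3 with the filter at the 75th percentile, 1 with the replicate block, 8 with the probe set of lowest p, and 2 to 7 with 1 array left out. In OVA against PM, 5 were called, against 1 with no filter, 3 with the filter at the 75th percentile, 3 with the replicate block, 8 in 1 fit of all 4 groups, and 1 to 7 with 1 array left out. In PM against Control 0 were called, and 1 (Mmp12) in 1 fit of all 4 groups. In OVA/PM against OVA 0 were called, and 1 (Mmp12) with the filter at the 75th percentile. The cause was not tested. Under the filter at the 75th percentile, Mmp8, Mmp9, Mmp13 and Mmp19 were too dim to be tested in any comparison and Timp1 in those without OVA/PM. The 3 genes called there in OVA against Control and in OVA against PM were Mmp2, Mmp12 and Mmp14.

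Signs of uncalled values turned for Mmp9 in OVA against Control (−1.05 to 0.0069 with 1 array left out), and, in PM against Control, for Mmp2 (−0.16 to 0.048 with 1 array left out), Mmp14 (−0.12 to 0.18 with 1 array left out, −0.34 with the probe set of lowest p) and Timp2 (−0.58 with the probe set of lowest p).

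Over all probe sets, 4899 were called in OVA/PM against Control and 2188 to 4491 with 1 array left out. In OVA against Control 4326 were called, against 2432 with no filter, 89 with the block, and 407 to 5284 with 1 array left out. In OVA against PM 1165 were called, against 4 with no filter, 1935 with the filter at the 75th percentile, 711 with the block, 3300 in 1 fit of all 4 groups, and 4 to 3587 with 1 array left out. In OVA/PM against PM 2894 were called, against 1377 with the block and 1367 to 1870 with 1 array left out. In PM against Control 16 were called, against 6 with no filter, 4 with the block, 38 in 1 fit of all 4 groups, and 3 to 11 with 1 array left out. In OVA/PM against OVA 29 were called, against 10 with no filter and 9 to 63 with 1 array left out. The interaction was called for 6, against 3 with the filter at the 75th percentile and 4 to 11 with 1 array left out.

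The replicate numbers gave no sign of pairing: of 18 same-numbered pairs of arrays, 3 had deviations from their group means correlated above 0.1 (median −0.06, range −0.45 to 0.40), and 2 of 12 arrays correlated best with their own number. With the replicate block, Mmp13 in OVA against Control had a limma adjusted p of 0.0534.

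The arrays number 3 a group, so uncalled values of Mmp8, Mmp9 and Timp1, whose replicates spread widely, have wide intervals. Levels under 4.93 give only a bound. The exchange of the OVA and PM names that the doubt on the labels raises would turn OVA against PM round, swap the comparisons of each with Control, and swap OVA/PM against OVA with OVA/PM against PM.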
